A study of Mus musculus with 6 samples.

Results

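Glycolysis and hypoxia response genes were examined as 32 gene symbols listed by name for their known role, not by a measured threshold. They comprise 3 glucose and lactate transporters, 16 genes for glycolytic enzymes and their regulator Pfkfb3, 4 genes for hypoxia-inducible factor (HIF) subunits and prolyl hydroxylases, and 9 other genes known to respond to hypoxia. The symbols matched 33 of the 52249 genes of the deposited count table, because Aldoa has 2 Ensembl identifiers. Of these, 31 passed the filter on low counts and were among the 10687 genes tested. Ldhb and the second Aldoa identifier were too low to test.

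The 6 libraries held 3′-end sequences of transcripts from mouse intestinal organoids, small epithelial structures that stem cells form in culture. All 6 were made from organoids of Apc-knockout mice, so both groups share the loss of a tumour suppressor gene whose protein holds WNT signalling in check. The labels give no further change for the 3 control libraries, whereas the other 3 carried overexpression (OE) of IGF2BP3, an RNA-binding protein, and are called OE-labelled here. The question of the comparison was how transcript levels differed with and without the overexpressed protein. Age and sex of the mice, the construct that expressed IGF2BP3, the Apc allele and the number of cultures behind each group are not given in the sources used here. Nothing states that the 3 libraries of a group came from separate cultures, so p-values measure only the spread between these libraries, which may be technical.

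Glycolysis splits glucose into pyruvate through a chain of cytosolic enzymes, and lactate dehydrogenase can turn the pyruvate into lactate, which leaves the cell through monocarboxylate transporters. HIF is a transcription factor with an oxygen-sensitive alpha subunit and a stable partner, ARNT. In oxygenated cells, prolyl hydroxylases of the EGLN family mark the alpha subunit for degradation through the VHL ubiquitin ligase, and in hypoxia it escapes and switches on genes for glycolysis, blood vessel growth and pH control. The intestinal epithelium lies next to an anaerobic lumen and is known for a physiological hypoxia, and WNT-driven intestinal tumours are known for high glycolysis. HIF binds a core element spelled ACGTG or GCGTG, which overlaps the E-box CACGTG that MYC and related factors bind.

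To show where these letters lie, the 250 bases before RefSeq's annotated starts (build GRCm38.p6) were searched on both strands for ACGTG and GCGTG. By symbol, 29 members matched, with 42 windows in all. Either motif occurred in 34 of the 42 windows (81.0%), against 38.6% of all 32851 RefSeq windows, and ACGTG alone in 52.4% against 16.6%. CACGTG, a subset of the ACGTG matches, occurred in 14.3% against 6.02%. The members were listed for a known role in glycolysis or hypoxia, and the RefSeq windows were not matched to them for base content. Genes with several annotated starts also count more than once. These shares are therefore a description and not a test. Of the 13 members that differed between the groups, 12 held a match in at least 1 window, and Tpi1 held none. The matched members outside these 13 all held a match too, except Gpi1. A match therefore did not set the changed members apart. Windows were matched in 75.0% both for the members that were higher in OE-labelled libraries (12 of 16 windows) and for those that were lower (3 of 4 windows). A match is a description of letters, not a binding site or a cause. The windows shown are the 6 with the smallest p-values among the changed members that hold a match, printed 5′ to 3′ on the gene's strand, with capitals marking every match on either strand. They lie at chr17:46025164-46025413 (minus strand, Vegfa), chr9:59656977-59657226 (plus, Pkm), chr10:59323046-59323295 (plus, P4ha1), chr10:78009808-78010057 (minus, Pfkl), chr6:125165774-125166023 (minus, Gapdh) and chr3:104638414-104638663 (plus, Slc16a1). The Vegfa and Pkm windows belong to the second of 2 starts that RefSeq annotates for the gene. The other Vegfa window held no match. The annotated 5′ end of Vegfa is at position 46032369, so the Vegfa matches shown lie inside the gene and not before its 5′ end. The Vegfa, Pkm, Pfkl and Gapdh windows lie within the annotated span of their gene.
Vegfa: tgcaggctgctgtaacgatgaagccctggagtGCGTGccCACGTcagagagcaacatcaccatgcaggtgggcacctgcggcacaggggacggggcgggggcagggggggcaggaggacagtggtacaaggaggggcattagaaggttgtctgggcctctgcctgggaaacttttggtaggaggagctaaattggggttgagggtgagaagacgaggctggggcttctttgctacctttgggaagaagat
Pkm: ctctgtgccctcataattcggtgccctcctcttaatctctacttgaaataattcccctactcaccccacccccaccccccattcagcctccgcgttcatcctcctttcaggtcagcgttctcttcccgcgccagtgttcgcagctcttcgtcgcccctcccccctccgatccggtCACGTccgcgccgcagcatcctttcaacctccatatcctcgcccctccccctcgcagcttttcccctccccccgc
P4ha1: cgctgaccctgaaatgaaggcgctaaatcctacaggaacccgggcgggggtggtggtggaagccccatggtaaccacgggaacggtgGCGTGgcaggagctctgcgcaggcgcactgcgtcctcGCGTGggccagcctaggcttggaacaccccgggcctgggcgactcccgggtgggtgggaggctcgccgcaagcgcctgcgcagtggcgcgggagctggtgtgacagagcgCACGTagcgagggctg
Pfkl: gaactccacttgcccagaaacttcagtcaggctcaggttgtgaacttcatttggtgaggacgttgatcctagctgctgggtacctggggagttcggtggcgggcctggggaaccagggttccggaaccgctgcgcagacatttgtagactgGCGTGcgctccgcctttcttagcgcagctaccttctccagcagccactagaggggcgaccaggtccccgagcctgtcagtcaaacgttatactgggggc
Gapdh: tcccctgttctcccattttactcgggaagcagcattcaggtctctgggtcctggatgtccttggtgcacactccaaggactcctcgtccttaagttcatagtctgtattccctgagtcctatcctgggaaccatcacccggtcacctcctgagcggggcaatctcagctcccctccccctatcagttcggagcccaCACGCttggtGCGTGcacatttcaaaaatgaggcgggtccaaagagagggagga
Slc16a1: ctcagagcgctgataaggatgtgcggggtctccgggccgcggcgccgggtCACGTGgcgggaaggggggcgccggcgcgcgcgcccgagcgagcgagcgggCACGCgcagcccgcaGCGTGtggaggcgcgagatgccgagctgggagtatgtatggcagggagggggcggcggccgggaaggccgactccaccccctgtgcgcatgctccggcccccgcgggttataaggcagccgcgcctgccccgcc

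In Vegfa the matches began 218 and 211 bases before the second annotated start, on opposite strands. P4ha1 had 3 matches, 163, 126 and 16 bases before its start. Single matches lay 75 bases before the Pkm start and 99 bases before the Pfkl start, and Gapdh had matches at 54 and 44 bases. Slc16a1, with matches at 200, 199, 149 and 134 bases, was the only window of the 6 with the full E-box CACGTG, at which both strands match.

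Library totals were 2180116 to 2228078 counts in control and 2310236 to 2519917 in OE-labelled libraries, and 3 counts, the limit that a count of 0 allows, correspond to 1.18 to 1.41 CPM (counts scaled to the size of the library). Igf2bp3 had 1, 0 and 0 counts in the control and 1, 0 and 0 in the OE-labelled libraries, so it gave no check of the label; whether the expressed transcript carries the 3′ end counted here is not given in the sources used here. Apc had 164 to 182 counts in control and 148 to 158 in the deeper OE-labelled libraries. In CPM it was lower, at 80.4 ± 4.3 in control and 62.0 ± 2.37 in OE-labelled libraries (n = 3, SD, log2 fold change -0.37, adjusted p = 0.0323 by edgeR). That call was lost with an offset for GC content (log2 fold change -0.17, adjusted p = 0.344 by edgeR). As counted from the 3′ end, Apc does not check the knockout that both groups share. The library names form one series in control and another in the OE-labelled group, so any effect of that series and of the group cannot be told apart. Of 12 epithelial markers, 10 could be tested, 6 were higher and 1 was lower, and Krt20 and Cdx1 had no count in any library. Their summed level was 4890 to 5190 CPM in control and 6370 to 7190 CPM in OE-labelled libraries. Enterocyte markers were low, with 8 of 14 at 0, 1 testable and a sum of 10.3 to 11.5 CPM in control and 4.72 to 7.61 CPM in OE-labelled libraries. The testable one, Apob, was lower (control 6.03 ± 1.38 CPM, OE-labelled 0.276 ± 0.239 CPM, the latter under the limit above; n = 3, SD; adjusted p = 0.000532 by edgeR). Fibroblast and endothelial markers summed to 0.81 to 3.28 CPM in any library, with 6 of 10 and 3 of 7 at 0, and 2 of 11 immune markers could be tested (6 at 0, summed 42.2 to 51.6 CPM in control and 61.3 to 76.2 CPM in OE-labelled libraries). Of these, Csf1r was higher (log2 fold change 0.68, adjusted p = 0.0061 by edgeR) and Cd68 did not pass. The mitochondrial ribosomal RNAs mt-Rnr1 and mt-Rnr2 took 8.93 to 9.41% of counts in control and 3.89 to 4.36% in OE-labelled libraries. The part of these shifts in the results on the members was not tested, except where a fit without mitochondrial genes is given.

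Transcripts of 8 glycolytic enzymes and of Pfkfb3 were higher in the OE-labelled organoids, whereas Vegfa and P4ha1 among the hypoxia response genes were lower. Of the 31 tested members, 10 were higher and 3 lower at an adjusted p below 0.05 (edgeR's quasi-likelihood test with Benjamini-Hochberg adjustment over all 10687 genes), and 18 did not pass. Among all tested genes, 16.5% were higher and 12.7% lower. The 10 that rose were Hk1, Hk2, Pfkl, Pfkfb3, Aldoa, Tpi1, Gapdh, Pkm and Ldha in glycolysis and the prolyl hydroxylase gene Egln3. The 3 that fell were the angiogenic factor gene Vegfa, the collagen prolyl hydroxylase gene P4ha1 and the monocarboxylate transporter gene Slc16a1. The sizes were moderate: the higher members were 1.27 to 1.95 times their control level and the lower members 0.532 to 0.584 times, and the size of the fold was below 2 for each of the 13.

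By role, 9 of the 15 tested glycolytic genes rose and none fell, with a median log2 fold change of 0.47 against 0.04 over all tested genes. Of the 4 HIF subunit and prolyl hydroxylase genes, 1 rose and none fell (median log2 fold change -0.21). Of the 9 other hypoxia response genes, none rose and 2 fell (median -0.07, and -0.14 without OE-labelled replicate 2), and of the 3 transporter genes 1 fell. Under 4 alternatives 5 members rather than 3 were lower: Egln1 and Hif1a joined without mitochondrial genes and over protein-coding genes only, and Egln1 and Car9 with no count filter and with a replicate block plus GC offset. Summed over a role, the glycolytic genes held 3940 to 4060 CPM in control libraries and 5260 to 5670 CPM in OE-labelled libraries. The sum for the hypoxia response genes was 1260 to 1290 CPM in control and 926 to 1130 CPM in OE-labelled libraries. In both sums the groups were separate, in opposite directions. Of the 9 hypoxia response genes, however, only Vegfa and P4ha1 were separate, and the other 7 overlapped. Vegfa alone went from a mean of 330 to 193 CPM, and Car9 was at 85.5 CPM in OE-labelled replicate 1. The lower sum is therefore not a fall shared by the genes of this role. In bulk RNA, fewer cells of a type and less RNA per cell cannot be told apart, so these levels are averages over the culture.

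**Figure D1:**
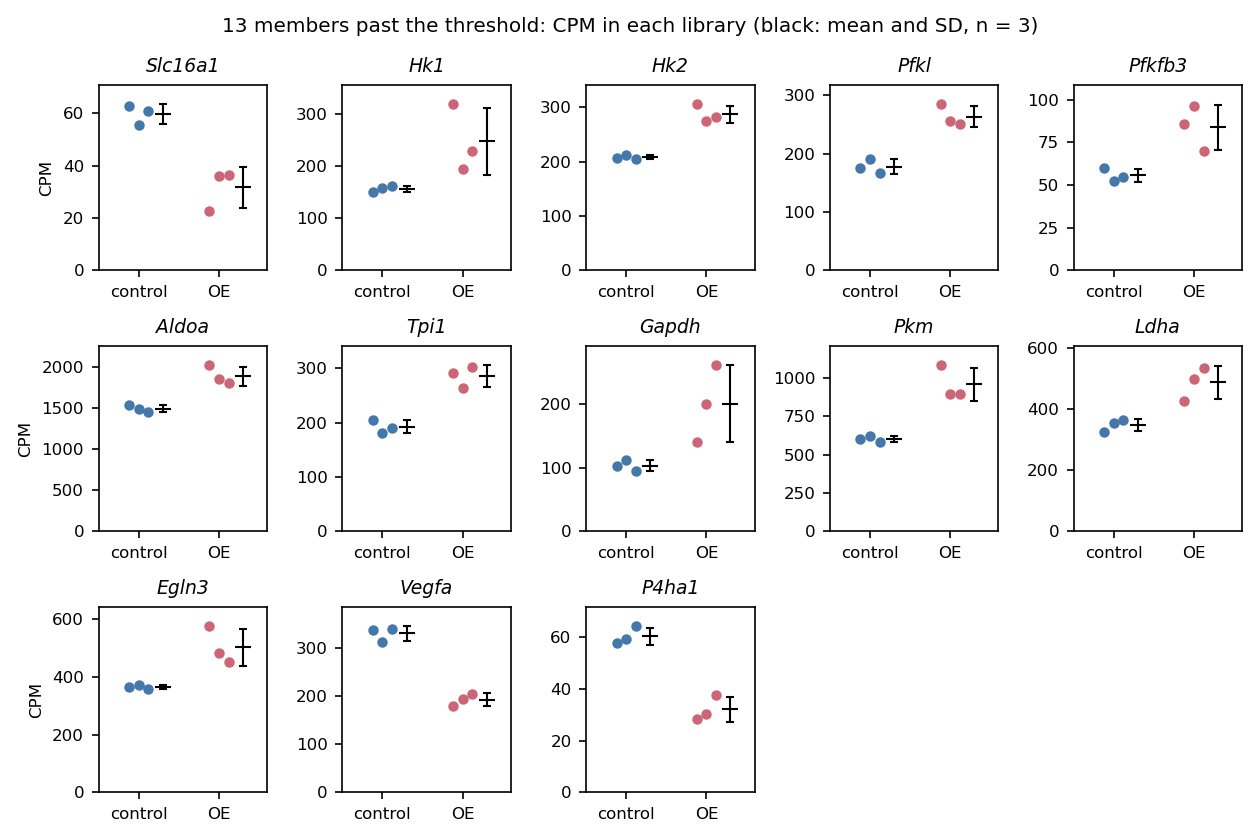
CPM (vertical axis, from 0) of the 13 members past the threshold, with a point for each of the 3 control and 3 OE-labelled libraries and a black mark for the mean and SD (n = 3). In each panel the groups do not overlap; Slc16a1, Vegfa and P4ha1 are lower and the other 10 are higher in OE-labelled libraries.

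For 16 of the 31 tested members the CPM values of the groups were separate, 11 with the OE-labelled libraries above and 5 with them below, whereas 25.3% of all tested genes were separate upwards and 20.5% downwards. The 3 that were separate without passing the threshold were Pfkm, above, and Hif1a and Egln1, below. OE-labelled libraries were the more variable: the highest library was 1.27 times the lowest in the median member, against 1.13 times in control, and the spread was wider in the OE-labelled group for 26 of 31 members. OE-labelled replicate 1 held the lowest level of all 6 libraries for 12 members and the highest for 10.

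**Figure D2:**
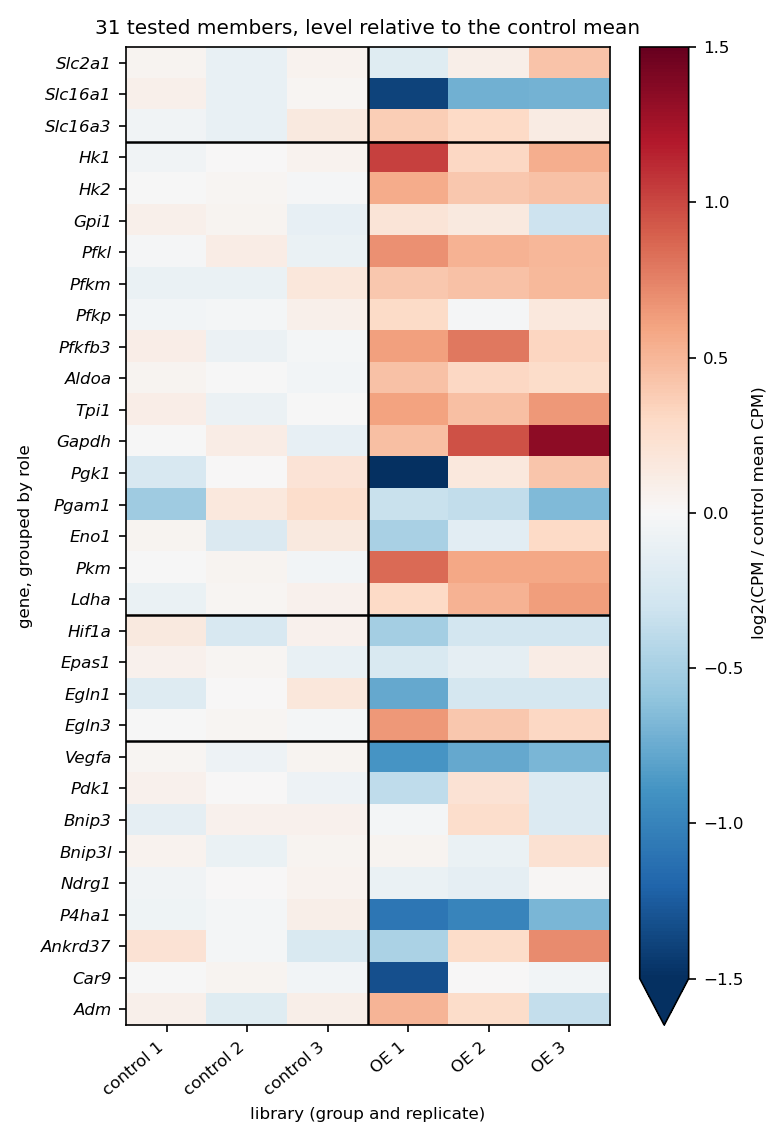
Level of the 31 tested members (vertical axis, grouped by role) in each library (horizontal axis), coloured as log2 of the CPM over the control mean, red above and blue below, with values under -1.5 drawn at the end of the scale. OE-labelled replicate 1 stands apart from replicates 2 and 3 for Pgk1 (9.72 CPM) and Car9 (85.5 CPM).

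The entry steps of glycolysis rose at hexokinase and at liver-type phosphofructokinase. Hk1 (ENSMUSG00000037012, chromosome 10, 62268855 to 62379908, minus strand), the hexokinase that phosphorylates glucose in most tissues, was at 151, 157 and 162 CPM in control replicates 1 to 3 and at 318, 194 and 229 CPM in OE-labelled replicates 1 to 3. Every OE-labelled library lay above every control library, and replicate 1 was the highest. The log2 fold change of Hk1 was 0.66 (SE 0.16; adjusted p = 0.00821 by edgeR), and without OE-labelled replicate 1 it was 0.38 (edgeR adjusted p = 0.00947). Hk2 (ENSMUSG00000000628, chromosome 6, 82725025 to 82774454, minus), the inducible hexokinase of growing cells, was at 207, 212 and 205 CPM in control and 305, 274 and 281 CPM in OE-labelled libraries. The groups were separate and tight, and the log2 fold change was 0.46 (SE 0.10; adjusted p = 0.00462 by edgeR).

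Phosphofructokinase commits sugar phosphate to glycolysis and has liver, muscle and platelet isozymes. The liver isozyme gene Pfkl (ENSMUSG00000020277, chromosome 10, 77986947 to 78010083, minus) was at 175, 191 and 166 CPM in control and 284, 255 and 250 CPM in OE-labelled libraries. These groups did not overlap, and Pfkl rose by a log2 fold change of 0.57 (SE 0.11; adjusted p = 0.00227 by edgeR). The muscle isozyme gene Pfkm was at 20.7, 20.6 and 24.9 CPM in control and 29.2, 29.9 and 30.9 CPM in OE-labelled libraries, which were separate but did not pass the threshold (log2 fold change 0.44, SE 0.17; adjusted p = 0.0673 by edgeR). The platelet isozyme gene Pfkp was at 122, 123 and 132 CPM in control and 153, 124 and 140 CPM in OE-labelled libraries. Its groups overlapped, with a log2 fold change of 0.14 (SE 0.12; adjusted p = 0.377 by edgeR).

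Pfkfb3 (ENSMUSG00000026773, chromosome 2, 11471433 to 11554077, minus) encodes the enzyme that makes fructose 2,6-bisphosphate, an allosteric activator of phosphofructokinase. It was at 59.9, 52.5 and 54.8 CPM in control and 85.5, 96.3 and 69.8 CPM in OE-labelled libraries. All 3 OE-labelled libraries were above the controls, with replicate 3 the nearest to them. The log2 fold change was 0.59 (SE 0.14; adjusted p = 0.0089 by edgeR), and the call was lost without OE-labelled replicate 2 (edgeR adjusted p = 0.0621) and without control replicate 2 (edgeR adjusted p = 0.0545). Gpi1, glucose phosphate isomerase, stood at 424, 413 and 370 CPM in control and 461, 447 and 324 CPM in OE-labelled libraries. Its groups overlapped and the log2 fold change of 0.03 ± 0.13 (SE) changed sign under 7 alternatives and in some fits without 1 library.

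The middle of the pathway splits fructose bisphosphate and oxidises the products. Aldoa (ENSMUSG00000030695, chromosome 7, 126795234 to 126800751, minus), the main aldolase of growing cells, was at 1540, 1490 and 1450 CPM in control and 2020, 1850 and 1800 CPM in OE-labelled libraries. Every OE-labelled library was above every control, by a log2 fold change of 0.34 (SE 0.09; adjusted p = 0.0139 by edgeR). This was the least stable of the 13 calls. It was lost with an offset for GC content (log2 fold change 0.11, edgeR adjusted p = 0.377), and without control replicate 1, 2 or 3 (edgeR adjusted p = 0.0555, 0.0788 and 0.0912), and without OE-labelled replicate 1 the estimate was 0.23 (edgeR adjusted p = 0.0206). Tpi1 (ENSMUSG00000023456, chromosome 6, 124810586 to 124814296, minus), triosephosphate isomerase, was at 205, 181 and 191 CPM in control and 291, 263 and 302 CPM in OE-labelled libraries. The groups were well apart, and the log2 fold change was 0.57 (SE 0.11; adjusted p = 0.00208 by edgeR).

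Gapdh (ENSMUSG00000057666, chromosome 6, 125161715 to 125166467, minus), glyceraldehyde 3-phosphate dehydrogenase and a common reference gene, had the highest fold change of the 31 tested members. It was at 103, 112 and 94.9 CPM in control and 141, 201 and 261 CPM in OE-labelled libraries. Even the lowest OE-labelled library, replicate 1, was above the controls, but the OE-labelled libraries were spread widely. The log2 fold change was 0.96 (SE 0.18; adjusted p = 0.00239 by edgeR). Gapdh has 79 near-identical copies in the annotation, 77 of them pseudogenes, which took 28, 27 and 35 counts in control and 37, 69 and 56 in OE-labelled libraries. Reads shared between these copies and the gene make its level uncertain, and with the copies' counts added the log2 fold change was 0.93.

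The 3 steps after Gapdh did not pass the threshold, and all 3 had negative estimates. Pgk1, phosphoglycerate kinase on the X chromosome, was at 36.9, 43.6 and 50.2 CPM in control and 9.72, 48.8 and 58.3 CPM in OE-labelled libraries. OE-labelled replicate 1 was far below the other 5 libraries, a factor of 6.0 under replicate 3. Its log2 fold change was -0.16 (SE 0.40; adjusted p = 0.79 by edgeR), and 0.24 without OE-labelled replicate 1 (edgeR adjusted p = 0.26). Pgam1, phosphoglycerate mutase, was at 8.76, 14.1 and 15.2 CPM in control and 10.1, 9.83 and 8.03 CPM in OE-labelled libraries (log2 fold change -0.44, SE 0.27; adjusted p = 0.239 by edgeR). The groups overlapped through control replicate 1. Eno1, enolase, was at 77.4, 64.7 and 82.9 CPM in control and 53.5, 67.2 and 92.2 CPM in OE-labelled libraries (log2 fold change -0.08, SE 0.18; adjusted p = 0.764 by edgeR). The OE-labelled libraries of Eno1 lay on both sides of the controls. Pgk1 has 4, Eno1 has 3 and Pgam1 has 1 near-identical copies elsewhere in the annotation.

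The last steps rose. Pkm (ENSMUSG00000032294, chromosome 9, 59656368 to 59679375, plus), the pyruvate kinase of growing cells, was at 599, 619 and 582 CPM in control and 1080, 896 and 894 CPM in OE-labelled libraries. The groups were far apart and the log2 fold change was 0.67 (SE 0.10; adjusted p = 0.000664 by edgeR), the smallest p among the higher members. Ldha (ENSMUSG00000063229, chromosome 7, 46841475 to 46855627, plus), the lactate dehydrogenase subunit that favours lactate formation, was at 326, 355 and 364 CPM in control and 428, 501 and 537 CPM in OE-labelled libraries. Replicate 1 was the lowest of the 3 OE-labelled libraries and still above the controls, and the log2 fold change was 0.49 (SE 0.11; adjusted p = 0.00589 by edgeR). The other lactate dehydrogenase subunit gene, Ldhb, had 6, 1 and 4 counts in control and 6, 6 and 16 in OE-labelled libraries and was not tested. The counts do not separate the PKM1 and PKM2 splice forms of Pkm. With near-identical copies added to all 11 members that have any, 10 members were again higher and 3 lower. The copies of Ldha and Tpi1 had 0 counts in every library and that of Pkm at most 1. Among the called members, only Gapdh could therefore change much. Shared reads that counting had dropped would not be added back, so this does not settle the uncertainty from copies.

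Among the transporters, the lactate and pyruvate carriers did not move together. Slc16a1 (ENSMUSG00000032902, chromosome 3, 104638668 to 104658462, plus), which encodes monocarboxylate transporter MCT1, was at 62.7, 55.4 and 60.8 CPM in control and 22.7, 36.2 and 36.4 CPM in OE-labelled libraries. All OE-labelled libraries were below all controls, replicate 1 the lowest, and the log2 fold change was -0.91 (SE 0.18; adjusted p = 0.00273 by edgeR). Slc16a3, the gene of the lactate exporter MCT4, was at 24, 23 and 27.6 CPM in control and 32, 30.7 and 27.1 CPM in OE-labelled libraries. The groups overlapped through OE-labelled replicate 3, and the log2 fold change was 0.27 (SE 0.17; adjusted p = 0.253 by edgeR). Slc2a1, the gene of the glucose transporter GLUT1, was at 146, 131 and 147 CPM in control and 125, 150 and 191 CPM in OE-labelled libraries. Its OE-labelled libraries spanned the controls (log2 fold change 0.13, SE 0.14; adjusted p = 0.521 by edgeR), and the estimate was -0.04 with a GC offset.

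Of the genes that make and control HIF, the prolyl hydroxylase gene Egln3 rose. Egln3 (ENSMUSG00000035105, chromosome 12, 54178981 to 54203860, minus), a hydroxylase gene known as itself induced by HIF, was at 364, 372 and 358 CPM in control and 574, 481 and 452 CPM in OE-labelled libraries. The groups were separate, with replicate 1 the highest, and the log2 fold change was 0.46 (SE 0.11; adjusted p = 0.00786 by edgeR). Without OE-labelled replicate 1 it was 0.30 (edgeR adjusted p = 0.0124), and without control replicate 3 the call was lost (0.45, edgeR adjusted p = 0.0529). Egln1, the main oxygen-sensing hydroxylase, was at 52.5, 60 and 67.3 CPM in control and 35.2, 49.9 and 49.9 CPM in OE-labelled libraries. The OE-labelled libraries were all below the controls, but the difference did not pass (log2 fold change -0.41, SE 0.16; adjusted p = 0.0753 by edgeR). Egln1 was past the threshold in 8 of the 19 alternatives at 0.05, among them a GC offset (log2 fold change -0.62, edgeR adjusted p = 0.0223) and a replicate block (edgeR adjusted p = 0.0437).

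Hif1a, the alpha subunit of HIF-1, was at 80.7, 61.5 and 76 CPM in control and 51, 60.2 and 60 CPM in OE-labelled libraries. The OE-labelled libraries were again all below, by a narrow gap to control replicate 2, and the test was not passed (log2 fold change -0.35, SE 0.14; adjusted p = 0.0808 by edgeR). It passed in 2 alternatives, without mitochondrial genes and over protein-coding genes only, and was -0.09 with the GC offset (edgeR adjusted p = 0.691). Epas1, the alpha subunit of HIF-2, was at 31.3, 30.5 and 27.6 CPM in control and 25.5, 27.1 and 32.1 CPM in OE-labelled libraries. The groups overlapped, with a log2 fold change of -0.08 (SE 0.17; adjusted p = 0.755 by edgeR). HIF alpha subunits are controlled mainly as proteins, which these counts do not measure.

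Among the hypoxia response genes, Vegfa (ENSMUSG00000023951, chromosome 17, 46016993 to 46032369, minus) had the smallest p-value of all members. The gene encodes the growth factor that draws blood vessels into hypoxic tissue. It was at 338, 313 and 340 CPM in control and 179, 194 and 205 CPM in OE-labelled libraries. The groups were widely separate, and Vegfa fell by 0.77 on the log2 scale (adjusted p = 0.000324 by edgeR; SE 0.10). P4ha1 (ENSMUSG00000019916, chromosome 10, 59323296 to 59373304, plus), a subunit of the enzyme that hydroxylates collagen prolines, was at 57.6, 59.1 and 64 CPM in control and 28.4, 30.3 and 37.6 CPM in OE-labelled libraries. These groups too were widely separate, and P4ha1 fell by 0.91 on the log2 scale (adjusted p = 0.000987 by edgeR; SE 0.15).

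Car9, a surface carbonic anhydrase that regulates pH and is a widely used marker of hypoxia, was at 212, 220 and 208 CPM in control and 85.5, 215 and 208 CPM in OE-labelled libraries. OE-labelled replicates 2 and 3 were at the control level, and replicate 1 was a factor of 2.52 below replicate 2. The log2 fold change was -0.33 (SE 0.25; adjusted p = 0.329 by edgeR), and -0.07 without OE-labelled replicate 1 (edgeR adjusted p = 0.623). Ankrd37, an ankyrin repeat gene known as a HIF target, was at 31.3, 26.3 and 23 CPM in control and 19.4, 32.6 and 44 CPM in OE-labelled libraries. Adm, the gene of the vasodilator peptide adrenomedullin, was at 36.4, 30.5 and 36.9 CPM in control and 49.4, 41.7 and 27.1 CPM in OE-labelled libraries. Both had OE-labelled libraries above and below the controls, and neither passed (edgeR adjusted p = 0.492 for Ankrd37 and 0.519 for Adm).

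The remaining hypoxia response genes did not pass the threshold. Ndrg1, a stress-induced growth regulator, was at 334, 349 and 360 CPM in control and 324, 317 and 352 CPM in OE-labelled libraries (log2 fold change -0.07 ± 0.10 SE). Pdk1, the kinase that shuts pyruvate dehydrogenase, was at 103, 98.5 and 93.1 CPM in control and 75.4, 114 and 85.4 CPM in OE-labelled libraries (-0.10 ± 0.15 SE). Both had overlapping groups. Bnip3 and Bnip3l encode related receptors for the autophagy of mitochondria. Bnip3 was at 70.5, 81.2 and 81.1 CPM in control and 75.8, 92.8 and 67.2 CPM in OE-labelled libraries, and Bnip3l was at 89.4, 80.2 and 88.5 CPM and at 88.7, 80.2 and 101 CPM. Their groups overlapped as well, and the log2 fold changes were 0.02 ± 0.14 and 0.06 ± 0.13 (SE). By edgeR, the adjusted p-values of these 4 genes were 0.626 for Ndrg1, 0.641 for Pdk1, 0.931 for Bnip3 and 0.738 for Bnip3l. The sign of the estimate changed under at least 1 alternative or fit without 1 library for Pdk1, Bnip3 and Bnip3l.

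GC content moved with the group over all genes: the median GC of the longest coding transcript was 54.0% for all genes that rose and 46.1% for all that fell, against 50.2% for all tested genes. The 10 higher members had a median of 55.0% (50.2 to 57.7%), the 3 lower members 45.7% (42.9 to 50.9%) and the members that did not pass 52.4%. The GC offset for each library used the GC of the whole transcript, whereas these libraries read transcripts near their 3′ end. The GC of the reads themselves was not measured. With this offset, 9 of the 10 higher members and 3 of 3 lower members kept their call, when 14.0% of all genes were higher and 9.81% lower. The estimates of Hk1, Pfkl and Pkm shrank to log2 fold changes of 0.43, 0.34 and 0.43 (edgeR adjusted p = 0.0487, 0.0298 and 0.0065). For Vegfa it was -0.82, for P4ha1 -0.73, for Slc16a1 -0.68 and for Gapdh 0.75. Under this offset the median over the glycolytic genes was 0.34. The median of the 9 hypoxia response genes turned from -0.07 to 0.06. Of the 13 calls, 10 held in each of the 19 alternatives at 0.05, and the exceptions were Pfkfb3, Aldoa and Egln3. Among these 13 genes, 8 overlap another annotated gene, and Pfkl, Ldha, Egln3, Vegfa and P4ha1 overlap none. Hk1, Hk2, Aldoa, Tpi1 and Gapdh overlap only genes on the opposite strand. Whether counting used strand is not given in the sources used here, so their reads cannot be told apart from those of their partners. Pkm and Slc16a1 overlap only genes on the same strand, and Pfkfb3 overlaps 1 gene on each. Counting by strand would not separate the reads of same-strand partners.

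**Figure D3:**
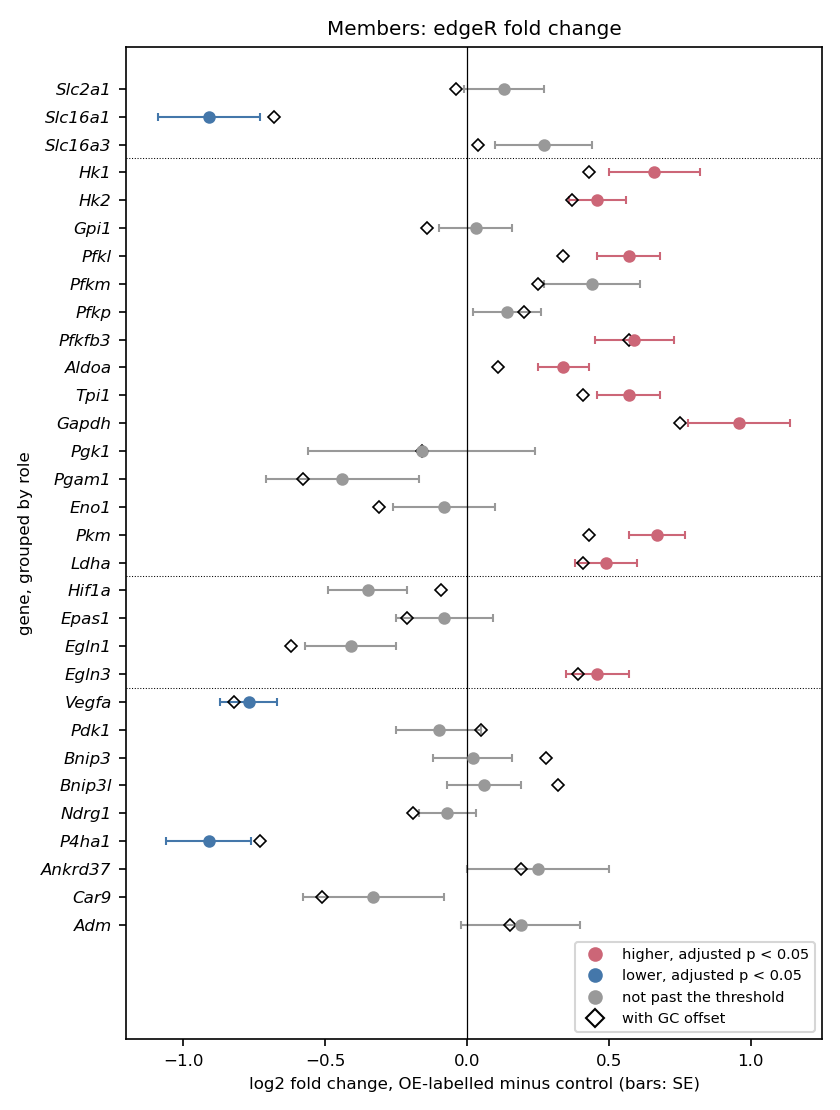
edgeR log2 fold change, OE-labelled minus control (horizontal axis), of the 31 tested members grouped by role; circles with bars give the estimate ± SE, red and blue past the threshold, and open diamonds give the estimate with a GC offset. Gapdh lies farthest to the right at 0.96, and the diamond of Aldoa lies at 0.11.

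Related members were then compared within a library, as log2 ratios of their counts, which do not depend on library scaling. Of 7 pairs compared, 3 had ratios that did not overlap between the groups. Each of these 3 holds a member already called above (Slc16a1, Egln3 or Pfkl), so they are not separate evidence. Single genes were separate in CPM, in either direction, for 45.7% of all tested genes, and the share for ratios was not computed. With 3 libraries against 3 the smallest two-sided exact permutation p is 0.1, so no pair could pass. The lactate transporter ratio Slc16a3/Slc16a1 was -1.38, -1.26 and -1.13 in control and 0.49, -0.24 and -0.42 in OE-labelled libraries. Every OE-labelled library was thus shifted towards Slc16a3 relative to control, by a mean of 1.2 on the log2 scale, although Slc16a1 still had the more counts in OE-labelled replicates 2 and 3 (exact permutation p = 0.1, 0.233 adjusted over the 7 pairs). The ratio Egln3/Egln1 was 2.79, 2.63 and 2.41 in control and 4.02, 3.26 and 3.17 in OE-labelled libraries. It was higher in every OE-labelled library, by 0.88 (exact permutation p = 0.1, adjusted 0.233), and farthest in replicate 1. The ratio Pfkp/Pfkl was -0.52, -0.63 and -0.33 in control and -0.90, -1.04 and -0.84 in OE-labelled libraries. It was lower in all 3, by a difference of -0.43 (exact permutation p = 0.1, adjusted 0.233).

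The other 4 ratios overlapped between the groups. For the hexokinases, Hk2/Hk1 was 0.41 ± 0.06 in the control libraries and 0.25 ± 0.28 in OE-labelled libraries (n = 3, SD, exact permutation p = 0.6). For Epas1/Hif1a the values were -1.27 ± 0.24 and -1.01 ± 0.12 (SD, n = 3, exact permutation p = 0.2). Differences were -0.13 for Pfkm/Pfkl and -0.05 for Bnip3/Bnip3l (exact permutation p = 0.5 and 0.9). Ldhb/Ldha was not compared, because the mean count of Ldhb was 6.5.

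**Figure D4:**
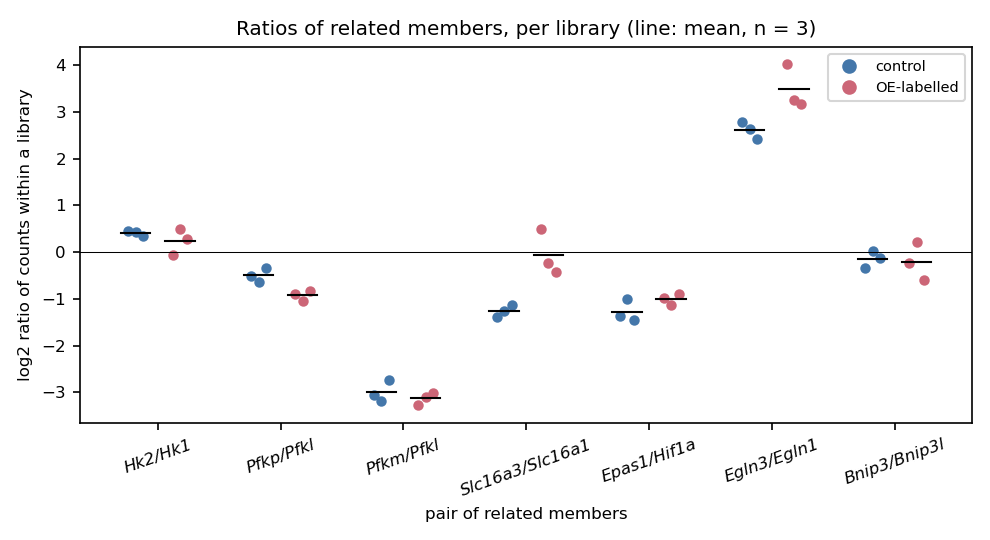
Log2 ratio of the counts of related members within each library (vertical axis) for 7 pairs (horizontal axis), control in blue and OE-labelled in red, with a line at each mean (n = 3). Slc16a3/Slc16a1 and Egln3/Egln1 are higher and Pfkp/Pfkl is lower in all 3 OE-labelled libraries.

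Other genes of the same pathways were read from lists of general knowledge. The count of each list is to be read beside all tested genes, of which 16.5% were higher and 12.7% lower. Of 33 other genes of glycolysis and gluconeogenesis, 16 could be tested, 4 rose and none fell (median log2 fold change 0.18). They were Aldoc, a second aldolase (0.68, SE 0.12; adjusted p = 0.00165 by edgeR), the glucose 6-phosphatase gene G6pc3 (0.64), the bisphosphoglycerate mutase gene Bpgm (0.80) and the liver pyruvate kinase gene Pklr (0.75). The count was 2 with DESeq2, 2 without control replicate 3 and 2 at a threshold of 0.01. Bpgm lost its call without control replicate 2 or 3 (adjusted p = 0.0654 and 0.0626 by edgeR). Pklr lost its call without control replicate 1 or 3 or OE-labelled replicate 2 (adjusted p = 0.104, 0.0943 and 0.0715 by edgeR). Pklr also did not pass with the GC offset (log2 fold change 0.56, adjusted p = 0.0779 by edgeR). With DESeq2 neither gene passed (adjusted p = 0.0531 for Bpgm and 0.0648 for Pklr). Among these 33, Pck1, G6pc and Fbp1 of gluconeogenesis had no count in any library. The related genes Pck2 and Fbp2 were detected, at means of 169 and 15.9 CPM in control and 196 and 25.7 CPM in OE-labelled libraries. Neither passed (adjusted p = 0.175 for Pck2 and 0.0502 for Fbp2 by edgeR). The pentose phosphate pathway, which branches from glucose 6-phosphate to make NADPH and ribose, had 6 of 10 tested genes higher and none lower (median 0.55). Its summed level was 1290 to 1350 CPM in control and 1680 to 1800 CPM in OE-labelled libraries. The entry enzyme gene G6pdx rose from 40.3 ± 6.23 to 74.4 ± 5.14 CPM (n = 3, SD; edgeR adjusted p = 0.000941), Pgd, the next dehydrogenase, from 204 ± 13.8 to 314 ± 35.3 CPM (edgeR adjusted p = 0.00186), and Taldo1, transaldolase, from 283 ± 7.63 to 451 ± 40.7 CPM (edgeR adjusted p = 0.000664). H6pd, the enzyme of the endoplasmic reticulum, rose by a log2 fold change of 0.90. With the GC offset 6 genes of this list were higher too, against 5 with DESeq2 and 4 without control replicate 1.

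Among genes of glycogen metabolism, the related pair Pgm1 and Pgm2 differed in direction. Pgm1, the phosphoglucomutase that links glycogen to glycolysis, rose from 86.1 ± 6.81 to 170 ± 33.5 CPM (n = 3, SD; edgeR adjusted p = 0.000544). Pgm2, a related mutase, fell by 0.79 on the log2 scale (edgeR adjusted p = 0.0455) and was past the threshold in 11 of 19 alternatives. It did not pass without OE-labelled replicate 1 (edgeR adjusted p = 0.0827) or control replicate 1, 2 or 3 (edgeR adjusted p = 0.108, 0.147 and 0.095). Nor did it pass with the GC offset (edgeR adjusted p = 0.0988) or with DESeq2 (adjusted p = 0.108). Of 11 tested genes that admit pyruvate to mitochondria, 4 rose and none fell: Pdk2, an inhibitory kinase of pyruvate dehydrogenase (0.85), and the complex's own subunit genes Pdhb (0.44), Pdha1 (0.36) and Dlat (0.46). That count depended on the fit: it was 1 with DESeq2 and 1 without any one of control replicates 1, 2 and 3. With a replicate block it was 3, Dlat being lost (edgeR adjusted p = 0.0565).

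Of 16 tested genes of the HIF machinery outside the members, 3 rose and 1 fell. Over all tested genes 16.5% were higher and 12.7% lower, so these counts do not set the list apart. Egln2, the third prolyl hydroxylase gene, rose from 52.7 ± 2.53 to 84.1 ± 19.6 CPM (n = 3, SD; edgeR adjusted p = 0.00875). Rbx1, a subunit of the VHL ligase, and Hsp90aa1, a chaperone of HIF alpha, rose by log2 fold changes of 0.58 and 0.38 (edgeR adjusted p = 0.00488 and 0.0189). Siah2, a ligase that degrades prolyl hydroxylases, fell by 0.76 on the log2 scale (edgeR adjusted p = 0.0279). Arnt, the HIF partner, was at 20.3, 17.8 and 28.1 CPM in control and 18.2, 18.5 and 47.4 CPM in OE-labelled libraries. Its groups overlapped, and it did not pass (edgeR adjusted p = 0.487), nor did Vhl (log2 fold change 0.29, edgeR adjusted p = 0.3) or Hif1an, the asparagine hydroxylase of HIF (-0.28, edgeR adjusted p = 0.159). The call of Siah2 was lost with DESeq2 (adjusted p = 0.0618) and, by edgeR, without control replicate 2 or 3 or OE-labelled replicate 3 (adjusted p = 0.058, 0.143 and 0.066). That of Hsp90aa1 was lost with DESeq2 (adjusted p = 0.0502) and, by edgeR, without control replicate 1, 2 or 3 (adjusted p = 0.051, 0.0992 and 0.101), and its log2 fold change was 0.23 without OE-labelled replicate 1. Egln2 lost its call without control replicate 1 (adjusted p = 0.0502 by edgeR), and its log2 fold change was 0.43 without OE-labelled replicate 1. Without 1 library, 1 to 4 genes of this list were higher and 0 to 3 lower.

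Of 38 other tested hypoxia-inducible genes, 13 fell and 3 rose, with a median log2 fold change of -0.26, or -0.13 with the GC offset. Their summed level was 3530 to 3600 CPM in control and 2940 to 3170 CPM in OE-labelled libraries. The nuclear receptor gene Rora fell from 81.3 ± 1.34 to 42.3 ± 3.71 CPM (n = 3, SD; edgeR adjusted p = 0.000335), and Bhlhe40, a hypoxia-induced repressor, from 192 ± 3.6 to 116 ± 9.5 CPM (edgeR adjusted p = 0.000591). Ero1l, an oxidase of protein folding, fell from 301 ± 13 to 188 ± 15.6 CPM (edgeR adjusted p = 0.000728), and Trf, transferrin, from 133 ± 11 to 76.6 ± 9.86 CPM (edgeR adjusted p = 0.00088). The number of lower genes was also 13 with the GC offset, under which Ccng2 and Rsbn1 no longer passed, and 11 with DESeq2, but 6 without control replicate 2, 8 without control replicate 3 and 7 at a threshold of 0.01. The number of higher genes was 0 without control replicate 1, 0 without control replicate 2 and 0 with DESeq2, and 1 without control replicate 3 or OE-labelled replicate 2. In other fits it was 2 with the GC offset, 4 without OE-labelled replicate 1 or 3, and 6 with library totals.

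**Figure D5:**
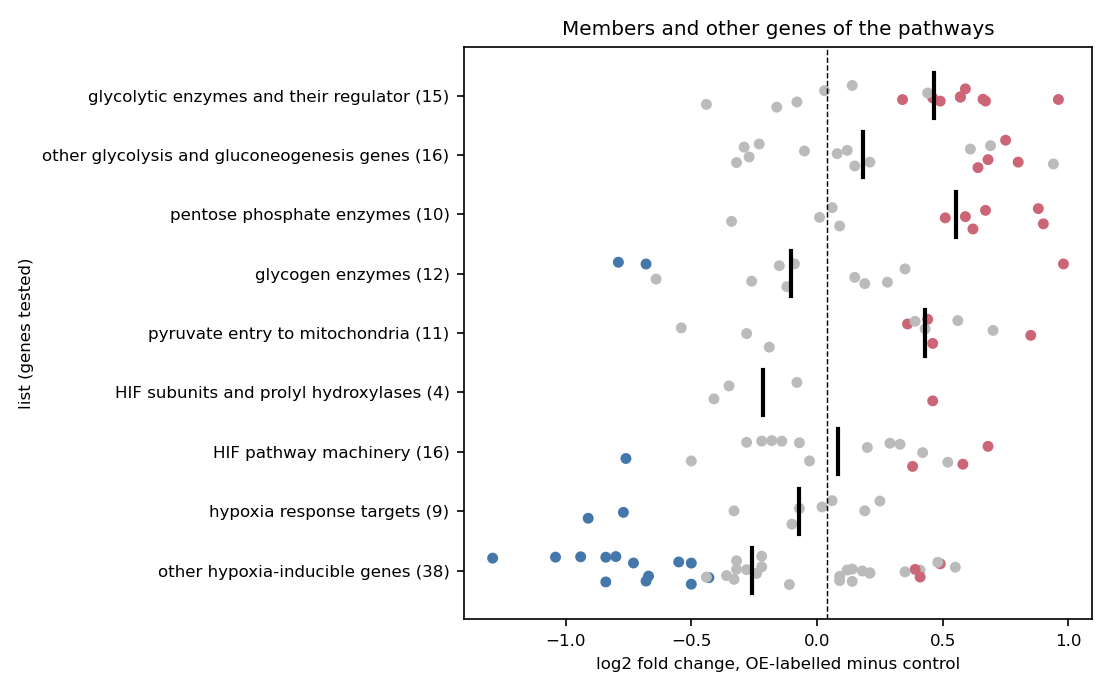
Log2 fold change, OE-labelled minus control (horizontal axis), of tested members and other pathway genes by list, with the number tested in brackets; red and blue points passed the threshold, bars mark list medians and the dashed line the median of all tested genes (0.04). The pentose phosphate list lies mostly to the right (median 0.55) and the other hypoxia-inducible genes mostly to the left (median -0.26).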

How the data were processed

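Per the labels' protocols, total RNA was made into libraries with a QuantSeq 3′ forward kit, which reads transcripts near their polyadenylated end, whatever their length. STAR and HTSeq, and the build mm10 (GRCm38), are named in the submitters' processing notes, without their settings for strand or shared reads. The deposited table holds the authors' estimated counts, not normalized, of 52249 Ensembl genes, with 3.09% of the values above 0 fractional. These were rounded before testing, whereas whole counts had been assumed when the test was planned. Groups and replicate numbers came from the sample titles, and columns were matched by the library name in the sample descriptions.

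OE-labelled libraries were compared with control over all 6 libraries by edgeR 4.0.16 (R 4.3.3; limma 3.58.1, DESeq2 1.42.0 for alternatives): filterByExpr with a minimum count of 10, TMM scaling, quasi-likelihood test without covariates, Benjamini-Hochberg adjustment over 10687 genes and a threshold of 0.05. CPM values are TMM-scaled, and means carry the SD of 3 libraries. Intervals and limits from counts cover counting error only. The test was tested on simulated counts. Positions, GC and gene overlaps came from GENCODE M21 (99.5% of identifiers matched), copies from alignments of at least 100 bases at 95% identity. Log2 ratios used counts plus 0.5. Named genes were all 32 members and, of each other list, of those past the threshold, the up to 4 with the lowest p, plus Arnt, Vhl, Egln2 and Hif1an. The result of 1 gene that this rule names is not reported here. The members and lists were chosen with earlier results of these data known, so no test over a list was made.

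Equal replicate numbers were not taken as pairs: nothing in the labels ties them, and the correlations of their deviations were 0.098, 0.018 and 0.07. The results were recomputed with other scaling, tool, filter, rounding and threshold, with a replicate block or GC offset, without mitochondrial genes and without each library, and 2 more settings (protein-coding genes only, copies added) were chosen after seeing the data.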

Additional observations from a re-analysis of the deposited data

How the results depend on the processing

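The labels do not pair the libraries, depth limits low genes such as Pgam1 and Ldhb, and OE-labelled replicate 1 stands apart for Pgk1 and Car9. Over the alternatives 8 to 11 members were higher and 3 to 5 lower, and the median log2 fold change of the members ranged from 0.027 to 0.183. Of the values of the 13 called members under alternatives, 251 kept direction and side of the threshold and 9 lost the threshold. For the 18 members not called, 319 kept both, 13 gained the threshold and 28 changed sign. With a replicate block 10 members were higher and 4 lower, Egln1 being added, and among the genes named from other lists in the report Dlat lost its call. Equal replicate numbers had deviations correlated at 0.098, 0.018 and 0.07, against a mean of -0.031 for unequal numbers. Deviations from a group mean cancel within the group. The mean for unequal numbers is therefore largely set by the equal ones and is no separate comparison. Lower members numbered 5 with no count filter, 5 with the replicate block plus GC offset, 5 without mitochondrial genes and CT010467.1, and 5 over protein-coding genes only; the last was chosen after seeing the data.

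Over all genes, 1765 were higher and 1353 lower with TMM, against 1536 and 1541 with DESeq2 size factors and 2035 and 1154 with library totals. Higher genes numbered 1059 with DESeq2's Wald test and 944 at a threshold of 0.01, where 634 were lower. Without 1 library, 1033 to 1959 were higher and 715 to 1731 lower. Of the other pathway genes, 21 were higher and 16 lower, against 11 higher with DESeq2, 11 higher and 8 lower at 0.01, and 11 to 25 higher and 7 to 19 lower without 1 library. Without 1 library, 8 to 10 members were higher and 3 to 4 lower. Single-library omission moved the ratio difference of Pfkm/Pfkl from -0.231 to 0.004 and of Bnip3/Bnip3l from -0.257 to 0.141.

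Members whose estimate changed sign were all ones that did not pass, and apart from fewer libraries or genes the cause was not tested. With the GC offset, log2 fold changes were -0.0436 for Slc2a1, -0.141 for Gpi1 and 0.0548 for Pdk1, and with the replicate block added -0.0631, -0.152 and 0.0402. For Gpi1 and Bnip3 they were -0.0107 and -0.023 with DESeq2 size factors, -0.0107 and -0.0234 with DESeq2's Wald test, -0.0005 and -0.0139 with no count filter, -0.0279 and -0.0382 without mitochondrial genes, and -0.0306 and -0.0408 over protein-coding genes. Without 1 library the ranges were -0.0368 to 0.209 for Slc2a1, -0.115 to 0.179 for Gpi1, -0.144 to 0.124 for Bnip3, -0.563 to 0.239 for Pgk1, -0.309 to 0.027 for Eno1, -0.023 to 0.111 for Bnip3l, -0.0388 to 0.45 for Ankrd37, -0.0579 to 0.399 for Adm and, outside the members, -0.262 to 0.547 for Arnt.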

Other observations

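Beyond the 4 named above, 9 other hypoxia-inducible genes were lower in OE-labelled libraries by edgeR; they are named after their values were seen. Igfbp3, a binding protein of insulin-like growth factors, went from 53.6 ± 2.64 to 21.9 ± 13.8 CPM (n = 3, SD; adjusted p = 0.0138 by edgeR). Plod2, a collagen lysyl hydroxylase, went from 16.5 ± 1.38 to 8.02 ± 2.1 CPM, a log2 fold change of -1.04 (adjusted p = 0.00858 by edgeR). Mxi1, a MAX partner of the MYC network, went from 134 ± 5.29 to 74.7 ± 14.7 CPM (adjusted p = 0.00122 by edgeR). Kdm3a and Jmjd6, oxygen-dependent dioxygenases, had log2 fold changes of -0.67 and -0.50 (adjusted p = 0.00797 and 0.0204 by edgeR). The others were Cited2 (-0.55), Hilpda (-0.43), Ccng2 (-0.84) and Rsbn1 (-0.50), the last 2 of which did not pass with a GC offset (adjusted p = 0.0947 and 0.279 by edgeR). The 3 higher genes of this list, Mif (0.41), Selenbp1 (0.49) and Stc2 (0.39), did not pass with that offset either (adjusted p = 0.284, 0.148 and 0.0882 by edgeR). With the offset, 2 different genes of the list were higher.

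The remaining higher genes of the pentose phosphate list were Rpia, ribose 5-phosphate isomerase (log2 fold change 0.59, adjusted p = 0.00883 by edgeR), and Prps1, which makes phosphoribosyl pyrophosphate (0.51, adjusted p = 0.0455 by edgeR). The groups overlapped for Prps1, which passed in 9 of the 19 alternatives.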
